A study of Chlamydomonas reinhardtii with 15 samples.

Results

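The transcript response of the Chlamydomonas reinhardtii mutant npq4 to sulfur deprivation was compared with that of the strain cc3491 over all genes on a 2-colour oligonucleotide array. The comparison used 7 of the 15 arrays of the series, chosen by their strain labels. The spread behind its SE and p-values was estimated over all 15, which also held 4 arrays of the strain 4A+ and 4 labelled cc125. There were 3 arrays of npq4, taken 24, 48 and 96 h after sulfur was removed, and 4 arrays of wt cc3491, taken at 24, 48, 72 and 96 h; a 72 h array of npq4 was not analysed here. Cultures of both strains had grown in acetate medium (TAP) to the early stationary phase before the cells were washed and moved to TAP without sulfur, where they were kept in constant light. On each array the starved RNA carried the red dye (Cy5) and the 0 h RNA of the same strain, taken before the transfer, the green dye (Cy3). The value of a transcript model, one predicted transcript of the genome, was the mean log2 ratio of red over green over its probes, so a value of 0 stands for equal levels in starved and 0 h cells. The quantity compared was the mean ratio of npq4 minus the mean ratio of cc3491. Below, a gene called higher or lower in npq4 differs in this ratio, not in its level, unless a level is named.

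What these groups can show was limited by their construction. npq4 is an insertional mutant without both LHCSR3 genes, and the strain that the study set beside it as its own control was 4A+, not cc3491, so the mutation and the rest of the strain background cannot be told apart in this comparison. Values of the 4 arrays of 4A+ (24, 48, 72 and 96 h) are given beside the others for that reason. The biological samples of a time point were pooled before labelling and the 0 h RNA of a strain is 1 sample on all of its arrays, so the arrays of a strain are its time points. The p-values measure the spread over time points and arrays, shared by all strains of the series, rather than between cultures. All arrays of a strain lay on a slide of their own, and slide and strain cannot be told apart. The arrays of npq4 and 4A+ were scanned on the same day and those of cc3491 on another. Since RNA came from whole cultures, fewer cells with a transcript and less transcript per cell cannot be told apart.

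LHCSR proteins are light-harvesting proteins made under stress, which in this alga let photosystem II dissipate excess light energy as heat. The mutant npq4 is named for the loss of this non-photochemical quenching. Cells without sulfur make arylsulfatases and sulfate transporters that collect sulfate, replace sulfur-rich proteins, reduce photosynthesis and can become anaerobic and make hydrogen.

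Fewer probes gave signal in npq4. Of 43687 probes for 14557 transcript models, 14313 to 19467 were well above background in the starved channel of the npq4 arrays, against 20954 to 26290 in that of the cc3491 arrays, and 16657 to 22091 in the 0 h channel of npq4, against 23602 to 27344 in that of cc3491. On the 4A+ arrays 8714 to 12423 probes were above background in the starved channel and 18224 to 19605 in the 0 h channel. Testing was limited to 32054 probes, of 13457 models, detected (well above background in red or green) on 3 or more of the 15 arrays. Over the 11947 probes above background in both channels on all 7 arrays, ratios of npq4 arrays correlated with each other at 0.75 to 0.90 and those of cc3491 arrays at 0.59 to 0.86, while an npq4 and a cc3491 array correlated at 0.53 to 0.75 (Pearson's r across probes, which share arrays and the 0 h RNA).

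The labels were checked first with the LHCSR genes. LHCSR3 (locus CHLRE_08g367400v5) gave no spot well above background among 9 in either channel of npq4 (3 probes on 3 arrays), whereas 11 of 12 starved spots and 12 of 12 spots at 0 h were above it in cc3491. Its log2 ratios were 0.071, 0.042 and 0.079 in npq4 (24, 48 and 96 h), against 3.07, 3.26, 2.76 and 1.03 in cc3491 (24, 48, 72 and 96 h), a difference of -2.47 (SE 0.56, BH adjusted p = 0.0172). Here and below, BH stands for the Benjamini-Hochberg adjustment of limma's moderated test over all models. The signal was lacking in every npq4 library, and the cc3491 ratio at 96 h was much lower than at the 3 earlier times. Because the npq4 spots only bound the level, the probe 1 signal of LHCSR3 in cc3491 was at least 65.9-fold above that of npq4 in starved cells and at least 5.62-fold above it at 0 h, with 16.4-fold and 2.54-fold for probe 2 and 2.28-fold and 1.07-fold for probe 3. Such bounds set the mean of the brighter strain against the dimmest signal that was well above background on each array of the other, or the probe's own signal where that was higher, and are open to dye bias, since a dye swap is not stated.

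LHCSR2 (CHLRE_08g367500v5), next to LHCSR3 in the RefSeq gene order and close to it in sequence, likewise gave little signal in npq4. The paper's text names LHCSR1 and both LHCSR3 isoforms as induced without sulfur, where its table lists LHCSR1, LHCSR2 and LHCSR3. The LHCSR2 model may thus be 1 of the genes that npq4 lacks. A lower level and a missing gene cannot be told apart here. The log2 ratios of LHCSR2 were 0.04, 0.079 and 0.029 in npq4 and 1.91, 2.39, 1.75 and 0.83 in cc3491, a difference of -1.67 (SE 0.39, BH adjusted p = 0.0185). In npq4 1 of 9 starved and 2 of 9 0 h spots were above background, and in cc3491 every spot. Its probe 2 was at least 20.9-fold brighter in starved cc3491 than in starved npq4 cells and at least 4.39-fold brighter at 0 h. In 4A+ the ratios were 0.12, 0.42, 0.39 and 0.70 for LHCSR2 and 0.57, 0.75, 0.41 and 1.11 for LHCSR3 (24, 48, 72 and 96 h), between those of npq4 and cc3491 at 24 and 48 h. Both calls depended on single arrays. LHCSR3 was not called without the 24 h array of npq4 (BH adjusted p = 0.0619) or the 48 h array of npq4 (BH adjusted p = 0.0659). LHCSR2 was not called without the 24 h array of npq4 (BH adjusted p = 0.0658), the 48 h array of npq4 (BH adjusted p = 0.066) or the 96 h array of npq4 (BH adjusted p = 0.0519). LHCSR1, which lies elsewhere on the chromosome, had ratios of 4.29, 4.88 and 5.82 in npq4 and 4.82, 5.45, 4.46 and 4.51 in cc3491, and the difference of 0.19 (SE 1.16, BH adjusted p = 0.947) was smaller than its error; 7 of 12 starved spots of cc3491 were saturated. The largest LHCSR ratios in npq4 were thus those of LHCSR1, whose ranges overlapped between the strains.

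Across all models the strain responses were similar in size and partly shared. The strain means correlated at 0.70 (Pearson's r across 13457 models, a description, since genes are no replicates), and the difference had a median of -0.013, with the 5th percentile of the models at -0.69 and the 95th at 0.69. At a Holm adjusted p of 0.05 and a difference of at least 1 on the log2 scale (2-fold), the test called 124 of 32054 probes, 0.387%, of which 99 were higher and 25 lower in npq4. At the level of models, 27 were higher, 0.201% of those tested, and 11 lower, 0.0817%. Under the less strict BH adjustment at the same 2-fold limit 187 models were higher, 1.39%, and 158 lower, 1.17%. Arrays of npq4 lay wholly above those of cc3491 in 1358 of 13433 models, 10.1%, and wholly below in 1460, 10.9%. The unadjusted p was below 0.05 in 3197 models.

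These counts moved with the processing and with the arrays. Without a normexp offset 27 probes (14 higher, 13 lower) and 23 models (15 and 8) passed the Holm limit. The scanner software's own ratio gave 36 probes (19 and 17) and 36 models (18 and 18). Normexp parameters taken from every spot gave 128 probes (121 and 7) and 37 models (32 and 5), so the excess of higher calls was not found under every scaling. The BH split was 177 higher and 237 lower without the offset and 318 higher and 456 lower with the scanner's ratio. Leaving out the 48 h array of npq4 gave 78 probes and 25 models, and a fit on the 7 arrays alone, whose spread was not shared with the other strains, 11 probes and 7 models. Under BH 100 models were higher and 63 lower without the 48 h array of npq4, and 139 higher and 67 lower without its 24 h array.

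**Figure D1:**
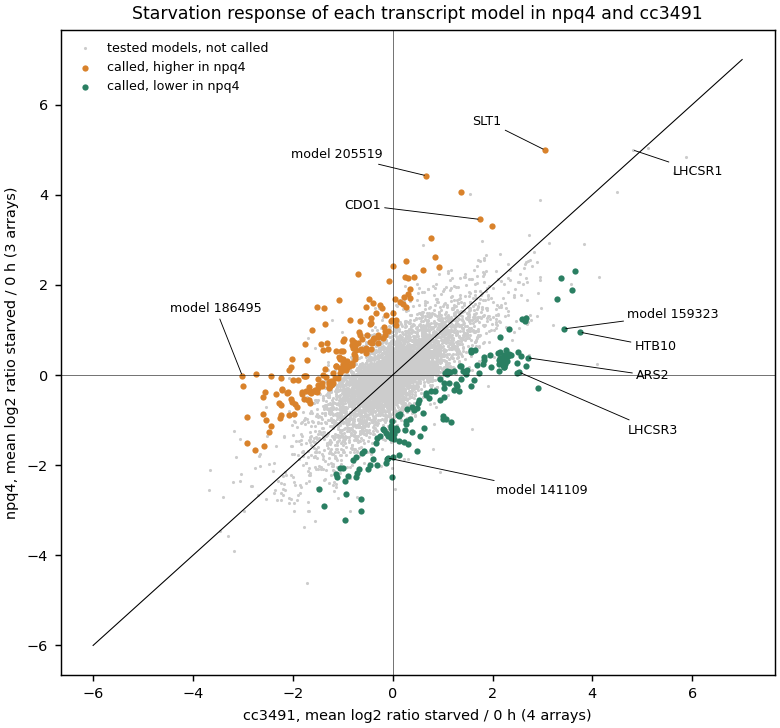
Mean log2 ratio of starved over 0 h cells for each of the tested transcript models, in npq4 (vertical axis, 3 arrays) against cc3491 (horizontal axis, 4 arrays); the diagonal marks equal responses. Orange points are the 187 models called higher and green points the 158 called lower in npq4 under Benjamini-Hochberg and a 2-fold limit. Of the orange points 96 lie below -1 in cc3491, and LHCSR3 and ARS2 lie close to 0 in npq4.

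A difference between the responses can come from the starved RNA or from the 0 h RNA of either strain, so the level in each channel was compared after loess and Aquantile normalization (log2 scale). Among the models called higher in npq4, 186 had a level on all 7 arrays, and in 150 of them (80.6%) the gap between the strains was larger at 0 h than in starved cells, against 55.3% over all models. The 0 h level was lower in npq4 in 182 of the 186. The median gap, npq4 minus cc3491, was 0.33 in starved cells and -1.1 at 0 h. In 141 models npq4 was higher in starved cells and lower at 0 h, in 41 it was lower in both, and in 4 higher in both. The difference used for the call is the starved gap less the 0 h gap, so these signs follow in part from the selection. Over all models the median gap was -0.022 in starved cells and -0.016 at 0 h.

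In terms of the ratios, 96 of the 187 models called higher had a ratio below -1 in cc3491, and 135 had a ratio within 1 of 0 in npq4. A ratio above 1 in npq4 was seen in 46. Of these models 35 lay beyond 0.5 with opposite signs in the strains.

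Models called lower in npq4 were divided more evenly. The gap was larger at 0 h in 83 of 158 (52.5%) and in starved cells in 75. The starved level was lower in npq4 in 112 and the 0 h level higher in npq4 in 124, with a median gap of -0.61 in starved cells and 0.79 at 0 h. In 78 models npq4 was lower in starved cells and higher at 0 h, in 46 higher in both and in 34 lower in both, and 24 of those 34 were histone H2B copies. These signs too follow in part from the selection. In cc3491 82 had a ratio above 1, and in npq4 58 had a ratio below -1 and 91 lay within 1 of 0. With the channels centred on their medians in place of Aquantile, a setting chosen after the data were seen, the gap was larger at 0 h in 95.7% of the models called higher and 24.7% of those called lower, so which channel carried the larger gap was not settled for the second group. Over the called models with every spot of both strains above background, 62 of 79 called higher and 41 of 76 called lower had the larger gap at 0 h.

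**Figure D2:**
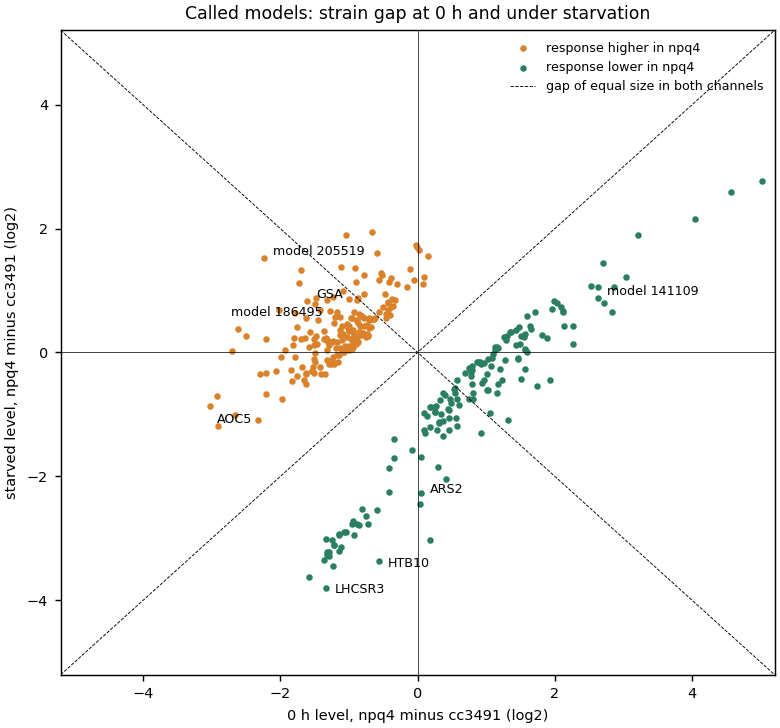
Gap between the strains, npq4 minus cc3491, in starved cells (vertical axis, log2) against the gap at 0 h (horizontal axis, log2) for each model called under Benjamini-Hochberg and 2-fold; dashed lines mark gaps of equal size in both channels. Models called higher in npq4 lie mostly left of 0, with 182 of 186 lower at 0 h in npq4, while the group of H2B models lies below 0 on both axes. The difference used for the call is the starved gap less the 0 h gap, so the side of a point follows in part from the selection.

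At least 2 probes were called higher, without overlap of the arrays, in 17 models, and the 12 with the largest computed differences are named. Model 205519 (CHLRE_03g163900v5), a transcript without a gene symbol here, was bright in starved cells of both strains, with 3 of 9 npq4 and 11 of 12 cc3491 starved spots saturated. Its computed log2 ratios were 4.29, 4.33 and 4.64 in npq4 and 0.50, 0.68, 0.75 and 0.75 in cc3491, and 3.34, 3.8, 3.58 and 2.96 in 4A+. Saturation makes the ratios of npq4 and cc3491 lower bounds, so the fitted difference of 3.75 (SE 0.26, Holm adjusted p = 3.46e-05) is neither an exact size nor a bound and gives the model no rank. The 0 h spots were not saturated, and the 0 h level was 11.78 in npq4 and 14.02 in cc3491.

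Model 186495 (CHLRE_02g079450v5) differed mainly at 0 h. Its ratios were 0.022, 0.014 and -0.077 in npq4 and -3.15, -3.42, -2.67 and -2.82 in cc3491, a difference of 3.0 (SE 0.17, Holm adjusted p = 2.5e-06). The starved levels averaged 6.49 in npq4 and 6.11 in cc3491, and 0 h levels 6.5 in npq4 and 9.12 in cc3491. The transcript was thus already dim in npq4 before the transfer, and 5 of 9 starved and 8 of 9 0 h npq4 spots were above background. Here 4A+, with -2.48, -2.4, -2.81 and -2.28, resembled cc3491. Model 146646 had ratios of -0.29, -0.39 and -0.049 in npq4 and -2.94, -2.78, -3.12 and -3.17 in cc3491, a difference of 2.76 (SE 0.13, Holm adjusted p = 3.62e-07), while the 4A+ ratios of 0.18, 0.071, 0.018 and 0.027 lay near those of npq4. The starved levels averaged 6.25 in npq4 and 5.98 in cc3491, and 0 h levels 6.49 in npq4 and 8.99 in cc3491, and 1 of 6 starved npq4 spots was above background.

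Model 147235 (CHLRE_12g530900v5) was measured above background on every spot of both strains. It had ratios of 0.82, 0.91 and 0.34 in npq4 and -1.96, -1.36, -1.23 and -1.18 in cc3491, opposite in sign on all 7 arrays, and 0.53, 0.62, 0.48 and 0.53 in 4A+; the difference was 2.12 (SE 0.18, Holm adjusted p = 0.000591). PHC17, one of the pherophorins, which are glycoproteins of the cell wall family, had ratios of -0.35, -0.01 and -0.75 in npq4 and -2.25, -2.05, -2.24 and -1.85 in cc3491, a difference of 1.73 (SE 0.16, Holm adjusted p = 0.00127), and 0.14, -0.0062, -0.035 and -0.012 in 4A+.

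The other higher models of this kind were without a gene symbol here. They were models 186626 (2.42), 183580 (2.2), 157675 (1.89), 9384 (1.79), 181358 (1.71), 189271 (1.41) and 169939 (1.21). In each of them the mean ratio in cc3491 was between -2.56 and -1.55 and that in npq4 between -0.60 and -0.022. Model 186626 was at the limit of detection in npq4, with 1 of 9 spots above background in each channel, and its probes 2 and 3 were at least 7.87-fold and 3.90-fold brighter in cc3491 at 0 h. Dim spots were common in the rest too: in starved npq4 cells 0 of 6 spots of models 157675 and 181358, 1 of 6 of model 183580 and 1 of 9 of model 169939 were above background. The third probe of model 169939 had a difference of -0.083, against 1.76 and 1.94 for its probes 1 and 2. The 4A+ mean of model 186626 was -2.51, close to that of cc3491, whereas the 4A+ means of the other 6 lay between -0.35 and 0.14.

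At least 2 probes were called lower in 3 models. Model 159323 (CHLRE_16g691776v5) had ratios of 0.84, 0.99 and 1.24 in npq4 and 3.62, 3.5, 3.02 and 3.59 in cc3491, a difference of -2.41 (SE 0.20, Holm adjusted p = 0.000268), and 0.92, 1.69, 1.19 and 0.89 in 4A+. The starved levels averaged 8.18 in npq4 and 9.28 in cc3491, and 0 h levels 7.16 in npq4 and 5.85 in cc3491. Its mean over probes was above 0 on every array and on each cc3491 array above every npq4 array. The 2 called probes, 2 and 3, had means of -0.48 and -0.086 in npq4 and 2.29 and 2.76 in cc3491. Probe 1, which was not called, had 3.63 in npq4 and 5.25 in cc3491. Model 191403 (CHLRE_09g393506v5) had ratios of -1.26, -1.07 and -0.60 in npq4 and 0.69, 1.25, 1.19 and 1.11 in cc3491, opposite in sign on all 7 arrays, with 4A+ between them at 0.12, -0.085, -0.11 and 0.18; the difference was -2.04 (SE 0.16, Holm adjusted p = 0.000138). Model 141109 (CHLRE_10g420800v5) had ratios of -1.17, -2.26 and -2.1 in npq4 and 0.041, -0.15, -0.10 and -0.18 in cc3491, a difference of -1.75 (SE 0.19, Holm adjusted p = 0.00668), which was not called without the 96 h array of npq4 (Holm adjusted p = 0.0762). Its starved levels averaged 7.04 in npq4 and 6.16 in cc3491, and 0 h levels 8.88 in npq4 and 6.26 in cc3491, so that the larger gap was at 0 h.

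**Figure D3:**
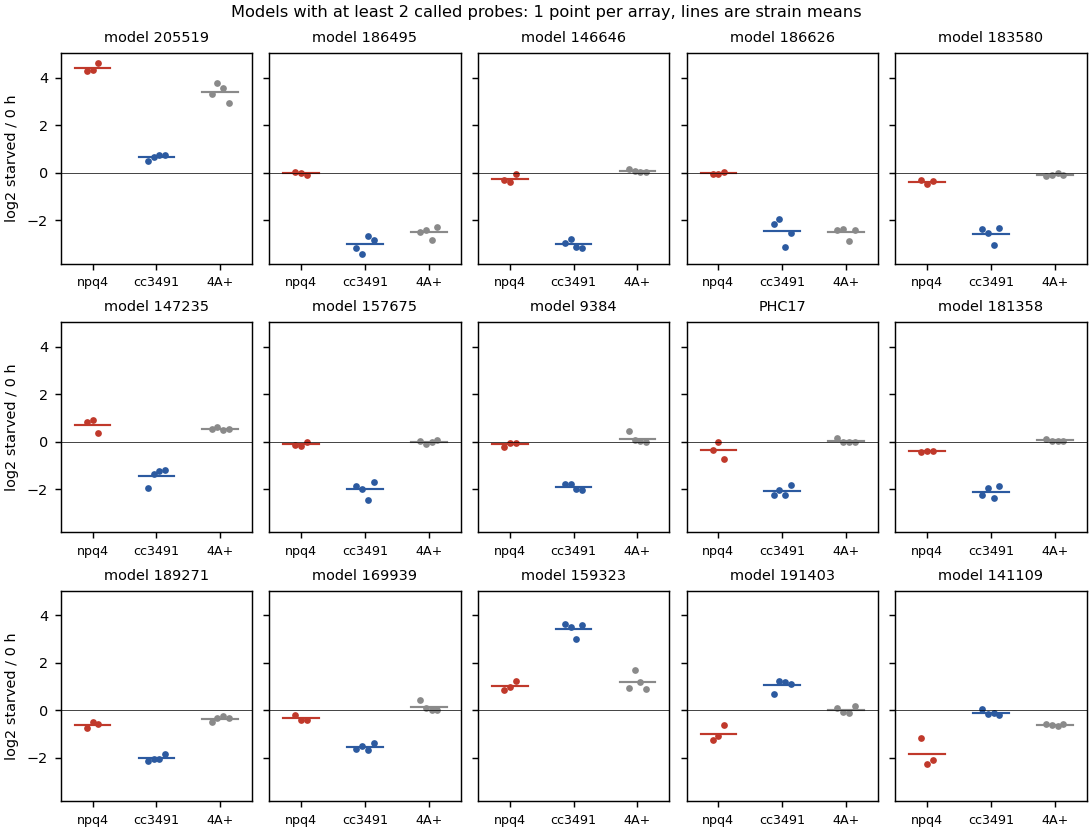
Log2 ratio of starved over 0 h cells on each array for the 15 models with at least 2 called probes, by strain (npq4, cc3491 and, beside them, 4A+); each point is 1 array and each line a strain mean. In the 12 models called higher, all npq4 points lie above all cc3491 points, and 4A+ lies near npq4 in most but near cc3491 in models 186495 and 186626.

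Of the 19 measured genes of sulfur uptake and metabolism, 6 passed BH and 2-fold, 3 in each direction, and the median difference was 0.034, against -0.013 over all models. The median ratio of the list was 1.89 in npq4 and 1.83 in cc3491, so the list medians were close. The genes that differed were of several kinds. Lower in npq4 were the periplasmic arylsulfatases ARS1 and ARS2, which release sulfate from sulfate esters, and ECP76, an extracellular protein poor in sulfur amino acids. ARS2 (CHLRE_16g671350v5) had ratios of 0.18, 0.12 and 0.84 in npq4 and 1.98, 3.12, 2.62 and 3.09 in cc3491, a difference of -2.32 (SE 0.29, Holm adjusted p = 0.0396). ARS1 (CHLRE_10g445000v5) had 1.66, 1.63 and 2.37 in npq4 and 3.76, 3.83, 3.33 and 3.49 in cc3491, a difference of -1.71 (SE 0.31, BH adjusted p = 0.00438). Of the starved ARS1 spots of cc3491 2 of 12 were saturated, so this difference is an upper bound. ECP76, which the rule for named genes does not include and which was chosen after its values were seen, had 2.12, 2.38 and 2.42 in npq4 and 4.07, 3.73, 3.53 and 3.29 in cc3491, a difference of -1.35 (SE 0.26, BH adjusted p = 0.00606).

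For all 3 of these genes no npq4 array reached the lowest cc3491 array, although the npq4 ratios of ARS1 and ECP76 were well above 0. In npq4 the ARS2 ratio, a mean over 3 probes, was below 1 at each time. For ARS2 4 of 9 starved npq4 and 9 of 12 starved cc3491 spots were above background, and probe 2 was at least 6.38-fold brighter in starved cc3491 cells. Probe 1 was above background on every array of both strains, with mean ratios of 1.06 in npq4 and 5.06 in cc3491. Probe 3 was above background on 1 starved array of each strain and had a difference of -0.14. The 4A+ means were 0.86 for ARS2, 2.34 for ARS1 and 2.39 for ECP76, each nearer to npq4 than to cc3491.

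Higher in npq4 were the ratios of SLT1, a sodium and sulfate cotransporter, CDO1, a cysteine dioxygenase, and SLT3, another transporter of the SLT family. Averaged over probes, the starved levels of SLT1 and CDO1 were not higher in npq4. They were 12.82 in npq4 and 13.17 in cc3491 for SLT1, and 11.3 and 11.38 for CDO1. The probes disagreed. In starved npq4 cells SLT1 probe 3 was higher, 13.67 against 13.34, as were CDO1 probes 1 and 2, 14.12 against 13.57 and 12.17 against 11.84. The other probes of both genes were lower. The 0 h levels were lower in npq4, 7.83 against 10.13 for SLT1 and 7.85 against 9.63 for CDO1. SLT1 had ratios of 5.0, 5.28 and 4.7 in npq4 and 2.22, 3.4, 3.97 and 2.59 in cc3491, a difference of 1.95 (SE 0.51, BH adjusted p = 0.0332). The SLT1 call was lost without any of 5 of the 7 arrays, with the highest BH adjusted p, 0.132, without the 48 h array of npq4. Of its starved cc3491 spots 3 of 12 were saturated, so that the cc3491 ratio is a lower bound and the difference an upper bound. CDO1 (CHLRE_03g174400v5) had 3.33, 3.36 and 3.67 in npq4 and 1.19, 1.73, 1.74 and 2.33 in cc3491, a difference of 1.71 (SE 0.28, BH adjusted p = 0.00279), and the opposite sign in 4A+, -1.01, -0.78, -1.56 and -1.32. Of the starved CDO1 spots of cc3491 1 of 12 was saturated, so the CDO1 difference is an upper bound too. For SLT3, again chosen after its values were seen, both strains had ratios below 0, -1.58, -1.54 and -1.58 in npq4 and -2.65, -2.55, -2.64 and -2.43 in cc3491, a difference of 1.0 (SE 0.14, BH adjusted p = 0.00108). SLT3 lay at the 2-fold limit and fell under it without the 48 h array of npq4 (0.99) or the 24 h or 72 h array of cc3491 (0.98 each). The plastid sulfate transporter subunits SABC and SBD1 did not pass, with differences of 0.034 and -0.17, nor did SLT2 (0.65), the ATP sulfurylase ATS2 (-0.37) or the sulfite reductase SIR1 (0.44). The differences of the 13 members that did not pass lay between -1.08 and 1.01.

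**Figure D4:**
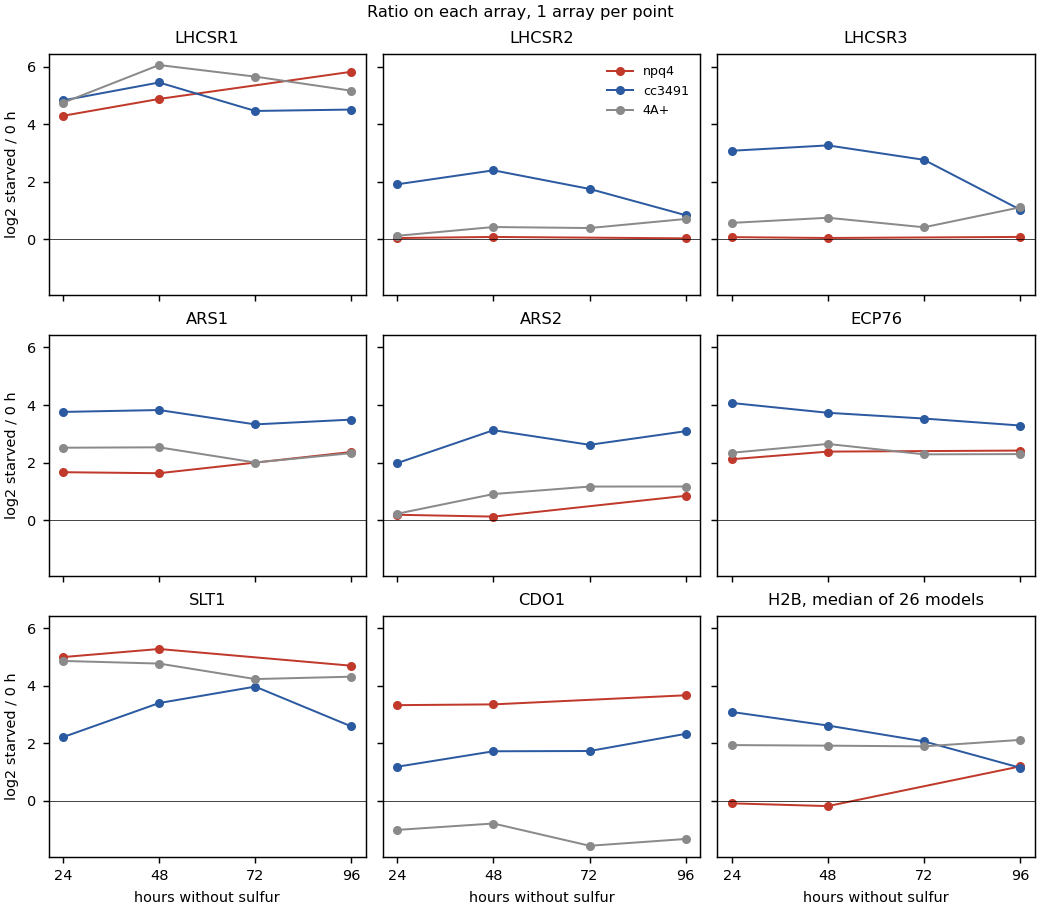
Log2 ratio of starved over 0 h cells at each time without sulfur (hours) for LHCSR1, LHCSR2, LHCSR3, ARS1, ARS2, ECP76, SLT1, CDO1 and the median of 26 H2B models, in npq4 (red), cc3491 (blue) and 4A+ (grey); each point is 1 array. The npq4 line lies near 0 for LHCSR2 and LHCSR3, below the cc3491 line for ARS1, ARS2 and ECP76, and above it for SLT1 and CDO1, while the H2B lines of npq4 and cc3491 meet at 96 h.

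Of 6 measured genes of chlorophyll synthesis, 2 had a higher ratio in npq4 and none a lower one, and the list's median difference was 1.27. The median was 1.58 with a normexp offset of 0, 2.11 with the scanner's ratio and 2.25 over probes above background in both channels on all 7 arrays. GSA, the glutamate-1-semialdehyde aminotransferase of the tetrapyrrole pathway, had ratios of 0.76, 0.76 and 0.52 in npq4 and -2.68, -2.12, -1.63 and -0.59 in cc3491, a difference of 2.44 (SE 0.46, BH adjusted p = 0.00648). The cc3491 ratio of GSA moved towards 0 with time, and all npq4 values lay above it. CHLM, the magnesium protoporphyrin methyltransferase, had -0.20, 0.0076 and 0.70 in npq4 and -2.77, -2.12, -1.89 and -1.39 in cc3491, a difference of 2.21 (SE 0.62, BH adjusted p = 0.0439). The CHLM call was lost without any of 6 of the 7 arrays (highest BH adjusted p = 0.136, without the 96 h array of npq4). The level of CHLM was lower in npq4 in both channels, 8.2 against 8.91 in starved cells and 8.03 against 10.95 at 0 h. That of GSA was higher in starved npq4 cells, 9.1 against 8.27, and lower at 0 h, 8.42 against 10.03. PBGD1, the porphobilinogen deaminase, had a difference of 2.5 (SE 0.73, BH adjusted p = 0.0531) and did not pass, and CPX1, the coproporphyrinogen oxidase, had -1.46 (SE 0.83, BH adjusted p = 0.323), with ratios above 0 on average in both strains.

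Among the light-harvesting antenna genes 1 of 12 was higher in npq4 and none lower, with a median difference of 0.66 and median ratios of -0.96 in npq4 and -1.74 in cc3491. LHCBM4, a protein of the photosystem II antenna, had ratios of -0.75, -0.32 and -1.51 in npq4 and -2.36, -2.81, -2.95 and -2.26 in cc3491, a difference of 1.73 (SE 0.38, BH adjusted p = 0.0136). It was not called without the 24 h array of npq4 (BH adjusted p = 0.0593) or the 48 h array of npq4 (BH adjusted p = 0.0791). The level of LHCBM4 was lower in npq4 in both channels, 8.79 against 9.97 in starved cells and 9.65 against 12.56 at 0 h. LHCBM9, the antenna gene with the highest ratio, had 4.69, 5.14 and 5.29 in npq4 and 5.51, 5.5, 4.42 and 5.06 in cc3491, but 11 of 12 starved cc3491 spots were saturated, so the cc3491 ratios are lower bounds and the computed difference of -0.08 (SE 0.35, BH adjusted p = 0.921) is an upper bound. Of 14 subunits of the photosystems, the cytochrome complex and the ATP synthase, ATPD, the delta chain of the ATP synthase, was the only one to pass, with means of -1.26 ± 0.35 in npq4 (SD, n = 3) and -2.48 ± 0.58 in cc3491 (SD, n = 4) and a difference of 1.23 (SE 0.34, BH adjusted p = 0.0451). The ATPD call was lost without any of 6 of the 7 arrays (highest BH adjusted p = 0.141, without the 96 h array of npq4). PSAH and PSAO, of photosystem I, had differences of 1.92 and 1.33 with BH adjusted p of 0.121 and 0.324. None of 3 genes of the Calvin cycle passed, and their median ratios were -2.21 in npq4 and -2.03 in cc3491.

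Of 15 genes of the low-CO2 response, 3 were higher in npq4 and none lower. HLA3, a bicarbonate transporter, had ratios of 0.22, -0.16 and -0.60 in npq4 and -1.72, -1.82, -0.77 and -1.37 in cc3491, a difference of 1.24 (SE 0.23, BH adjusted p = 0.00578). CAH1, the periplasmic carbonic anhydrase, had -1.87, -1.82 and -1.33 in npq4 and -2.52, -2.61, -3.03 and -2.91 in cc3491, a difference of 1.09 (SE 0.16, BH adjusted p = 0.00133) that fell to 0.92, under the 2-fold limit, without the 96 h array of npq4. CCP2, a chloroplast envelope protein, had 1.22, 1.32 and 0.67 in npq4 and -0.81, -0.38, 0.65 and -0.12 in cc3491, a difference of 1.24 (SE 0.27, BH adjusted p = 0.0128) that was not called without the 24 h (BH adjusted p = 0.0618) or the 48 h (BH adjusted p = 0.0701) array of npq4. In all 3 the npq4 arrays lay above those of cc3491, though the ratio was below 0 in both strains for CAH1. LCR1, a regulator of the low-CO2 response which was outside the list, differed by 1.99 (SE 0.18, Holm adjusted p = 0.000912), with ratios of -0.79, -1.29 and -0.73 in npq4 and -3.02, -2.62, -3.34 and -2.72 in cc3491. The list's median difference was 0.41.

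Cell wall genes also differed in the higher direction, in 3 of 8. Besides PHC17, these were PHC15, with ratios of 0.49, 1.1 and -1.23 in npq4 and -1.52, -2.13, -1.65 and -3.01 in cc3491 and a difference of 2.2 (SE 0.53, BH adjusted p = 0.0238), and MMP3 (model 196351), a matrix metalloproteinase. MMP3 had 1.62, 1.87 and 1.06 in npq4 and 0.30, -0.085, 0.31 and 0.52 in cc3491, a difference of 1.26 (SE 0.23, BH adjusted p = 0.0045). PHC15 was not called without the 24 h array of npq4 (BH adjusted p = 0.0999) or the 48 h array of npq4 (BH adjusted p = 0.125), and 8 of 12 of its 0 h spots in cc3491 were saturated. Its mean ratio in 4A+ was -3.81, below both.

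Among plastid ribosomal proteins 2 of 3 were higher, PRPL7/L12 with means of -0.63 ± 0.10 in npq4 and -1.97 ± 0.39 in cc3491 (SD, n = 3 and 4) and a difference of 1.33 (SE 0.28, BH adjusted p = 0.0102), and PRPL31 with -0.62 ± 0.27 in npq4 and -1.67 ± 0.19 in cc3491 and a difference of 1.04 (SE 0.17, BH adjusted p = 0.00271). The PRPL7/L12 call was lost without the 48 h array of npq4 (BH adjusted p = 0.0512). PRPL31, just past 2-fold, fell under that limit without the 48 h (0.95) or 96 h (0.97) array of npq4 or the 24 h or 96 h array of cc3491 (0.99 each), and neither gene was called with a normexp offset of 0 or with the scanner's ratio. PRPL29, the third, had 1.52 (SE 0.52, BH adjusted p = 0.0933). All 3 lay without overlap, and the list's median was 1.33. Of 7 lipid genes 1 was higher: GPD1, a glycerol-3-phosphate dehydrogenase, had ratios of -0.64, -0.16 and -0.67 in npq4 and -3.02, -3.59, -1.32 and -2.5 in cc3491, a difference of 2.12 (SE 0.42, BH adjusted p = 0.00851).

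Nitrogen genes went both ways, with 1 higher and 1 lower of 21. AOC5 (model 205770), a cationic amino acid transporter, had ratios of -0.12, -0.066 and -0.03 in npq4 and -3.0, -1.72, -1.39 and -2.8 in cc3491, a difference of 2.15 (SE 0.31, BH adjusted p = 0.00121). In npq4 none of its 6 spots in either channel was above background, and its probes were at least 9.18-fold and 7.19-fold brighter in cc3491 at 0 h and at least 1.89-fold and 1.61-fold brighter in starved cc3491 cells, so the npq4 ratio near 0 compares background with background. UAPA3 (model 169259), a permease for uric acid and xanthine measured by 1 probe, had -1.89, -1.97 and -0.59 in npq4 and 0.80, 0.29, -0.10 and -0.067 in cc3491, a difference of -1.72 (SE 0.36, BH adjusted p = 0.0111), and was not called without the 24 h array of npq4 (BH adjusted p = 0.0621) or the 48 h array of npq4 (BH adjusted p = 0.0664).

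In the flagellar list 2 of 36 were higher and 1 lower. TUA1, an alpha tubulin, had mean ratios of -0.37 ± 0.088 in npq4 and -1.57 ± 0.37 in cc3491 (SD, n = 3 and 4), a difference of 1.2 (SE 0.22, BH adjusted p = 0.00534). FAP274.a, a flagellar associated protein, had 0.78 ± 0.50 in npq4 and -0.82 ± 0.43 in cc3491, a difference of 1.6 (SE 0.41, BH adjusted p = 0.0311) that was lost without any of 5 arrays (highest BH adjusted p = 0.14, without the 48 h array of npq4). FAP203 had -2.09 ± 0.29 in npq4 and -0.49 ± 0.28 in cc3491, a difference of -1.6 (SE 0.35, BH adjusted p = 0.0142), and was not called without the 24 h array of npq4 (BH adjusted p = 0.0699) or the 48 h array of npq4 (BH adjusted p = 0.0584). The median ratios of the list were -0.80 in npq4 and -0.86 in cc3491.

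Genes of fermentation and hydrogen production differed in the lower direction in 1 of 5. FDX2, an apoferredoxin, had ratios of 0.23, 0.60 and 0.86 in npq4 and 1.93, 1.19, 1.76 and 1.75 in cc3491, a difference of -1.09 (SE 0.23, BH adjusted p = 0.0118), which was not called without the 24 h array of npq4 (-0.93, BH adjusted p = 0.0658). The hydrogenase HYDA1 had -2.08, -1.89 and -1.17 in npq4 and -0.48, -0.44, -0.76 and -0.12 in cc3491; the arrays did not overlap, but the difference of -1.26 (SE 0.42, BH adjusted p = 0.085) did not pass. HYDA2, the other hydrogenase, had -0.60 (SE 0.28, BH adjusted p = 0.209). The list's median difference was -0.71.

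Most list members that were lower in npq4 were core histones, 25 of 69 measured. Of 26 measured models of histone H2B, 24 were lower in npq4 and none higher, with differences of -2.81 to -1.59 and a median of -1.92 over the 26. The median H2B ratio was -0.083, -0.18 and 1.2 in npq4 (24, 48 and 96 h), against 3.09, 2.62, 2.07 and 1.16 in cc3491 (24, 48, 72 and 96 h), and 1.94, 1.92, 1.9 and 2.12 in 4A+ (24, 48, 72 and 96 h). The medians of npq4 and cc3491 were thus far apart at 24 and 48 h and close at 96 h, and the arrays overlapped in all but 6 of the 24. The median starved level was 8.04 in npq4 and 11.13 in cc3491, and the median 0 h level 7.75 in npq4 and 8.91 in cc3491. The copies of this histone are near-identical, so their probes can bind transcripts of each other and the 24 models are not 24 independent results.

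HTB10 had the largest H2B difference, with ratios of 0.43, 0.31 and 2.1 in npq4 and 4.62, 4.19, 3.55 and 2.67 in cc3491, a difference of -2.81 (SE 0.57, BH adjusted p = 0.00862). HTB2 (-2.21), HTB19 (-2.06), HTB7 (-2.05), HTB27 (-2.02) and HTB12 (-1.99) followed it. In HTB27 the third probe had a difference of -0.051, against -2.45 and -3.55 for probes 1 and 2. Without the third probe of each model 5 H2B models were called, and the median difference over all 26 was -2.21. The number of H2B models called was 1 without the 24 h array of npq4, 0 without its 48 h array, and 3 without the 24 h or the 48 h array of cc3491, and HTB10 itself was not called without the 48 h array of npq4 (BH adjusted p = 0.0529). None of 27 H2A and 13 H4 models was called, with median differences of -0.32 and -0.020, and among 3 H3 models HTR7, chosen after its values were seen, differed by -1.21 (SE 0.34, BH adjusted p = 0.0473), a call lost without any of 6 of the 7 arrays (highest BH adjusted p = 0.172, without the 24 h array of npq4). The median difference of all 69 core histones was -0.38.

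No member was called among 5 phosphate genes, 1 cytosolic ribosomal protein, 9 chaperones, 8 genes of metal uptake, 4 genes of mating type and sex, and 2 starch genes. In some of these the values were large but variable. FEA1 (model 156833), an iron-assimilation protein, had ratios of -4.52, -4.05 and 2.13 in npq4 and 1.15, 0.44, 0.98 and 1.21 in cc3491, a difference of -3.09 (SE 1.5, BH adjusted p = 0.235). CYC6, the copper-responsive cytochrome c6, had 0.021, -0.027 and 3.33 in npq4 and 3.16, 3.29, 2.96 and 3.4 in cc3491, a difference of -2.1 (SE 1.09, BH adjusted p = 0.273); 4 of 12 starved cc3491 spots of each were saturated. In npq4 both genes had their high ratio on the 96 h array only, above the cc3491 values for FEA1 and among them for CYC6. Over 20 lists, chosen with earlier results of these data known, members passed the limit in both directions. Over all models 1.39% were called higher and 1.17% lower. List members needed a symbol, taken from the study's tables of expression under nitrogen or sulfur starvation or from its text. Those sources can favour genes that respond, in part on these same arrays. A list's share of calls above that over all models can follow from this choice.

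**Figure D5:**
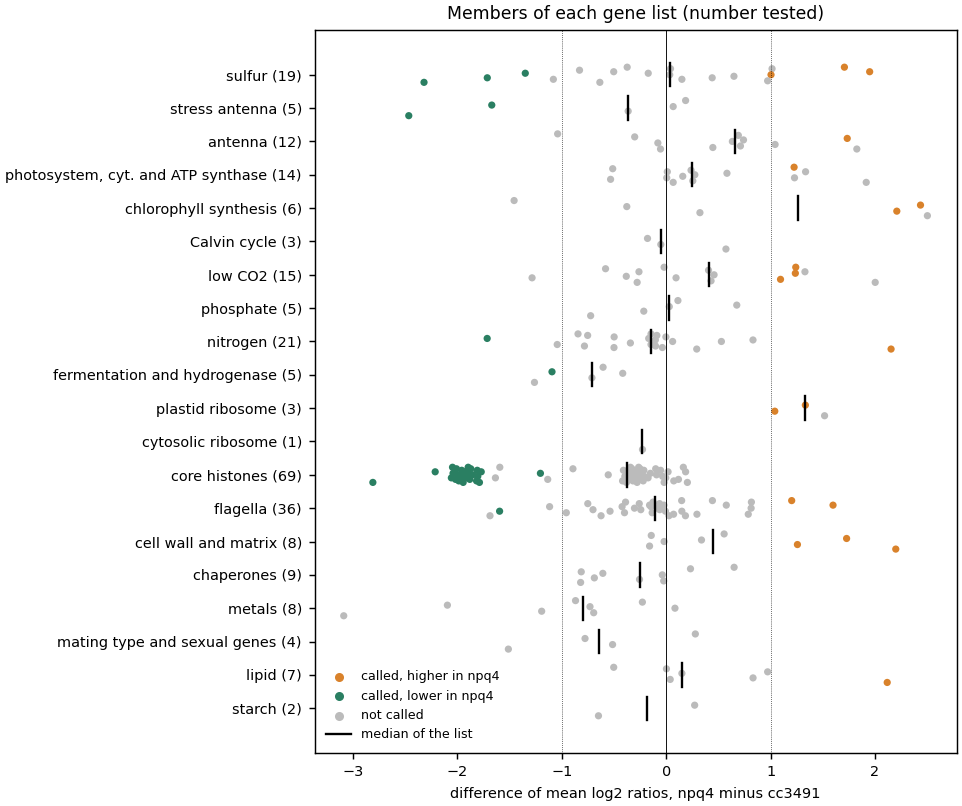
Difference of the mean log2 ratios, npq4 minus cc3491 (horizontal axis), for each member of the 20 gene lists (rows, number tested in brackets); orange and green points passed Benjamini-Hochberg and 2-fold, grey points did not, and black bars are list medians. The 24 H2B models form the green group in the row of core histones, and the medians of chlorophyll synthesis and plastid ribosome lie at 1.27 and 1.33.

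Outside the lists, a further 2 named genes were lower. RSEP1, an intramembrane metalloprotease, had ratios of -1.34, -1.36 and -0.46 in npq4 and 1.14, 1.25, 1.23 and 1.09 in cc3491, a difference of -2.23 (SE 0.39, BH adjusted p = 0.00374). LIPB (CHLRE_01g010350v5), a lipoate protein ligase, had 0.46, 0.55 and 0.55 in npq4 and 2.06, 1.71, 2.38 and 2.48 in cc3491, a difference of -1.64 (SE 0.24, BH adjusted p = 0.00135). Neither gene overlapped between the strains, and for RSEP1 the ratios had opposite signs. In starved npq4 cells 3 of 9 RSEP1 spots were above background, all of them of probe 1. That probe had a difference of -4.46, against -1.28 and -0.95 for probes 2 and 3. PTK13, a protein tyrosine kinase, was higher, with -0.60, -0.14 and -0.20 in npq4 and -2.96, -2.79, -0.94 and -2.18 in cc3491, a difference of 1.91 (SE 0.41, BH adjusted p = 0.0122), lost without the 48 h array of npq4 (BH adjusted p = 0.06). By the same rule 25 genes with a symbol qualified as higher and 19 as lower, of which 12 each are named.

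The mean ratio of 4A+ was nearer to npq4 than to cc3491 in 135 of 186 models called higher (72.6%) and in 82 of 158 called lower (51.9%), against 58.1% over all models. These shares were not tested, since 4A+ and npq4 are read here against the same cc3491 arrays. Scan day, slide and the number of probes above background also differed between the strains, as given above, and their part in the differences was not tested. Over all 13457 tested models, 2421 had every spot of both strains above background. Among called models this share was larger, but many calls still rest in part on dim spots. Every spot was above background in 79 of the 187 models called higher and 76 of the 158 called lower. Fewer had none: of the models called higher, 1 had no 0 h spot and 4 had no starved spot above background in npq4, and of those called lower 4 and 2, while in cc3491 none of those called higher and 5 (0 h) and 2 (starved) of those called lower had no such spot.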

How the data were processed

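Starved RNA (Cy5, red) and the 0 h RNA of the same strain (Cy3, green) were hybridised together on a 2-colour Agilent array of 45218 spots, most transcript models with 3 probes. The deposited scanner files, made by the authors with Agilent Feature Extraction 10.7.3.1 per the submitters' processing notes, hold, per channel, the median intensity of a spot and of the background around it, with flags for detection and saturation. The authors also deposited a log10 ratio of red over green per spot, background-subtracted and dye-normalized by the scanner software; the values deposited as the series table are the same (largest difference 0), on the log10 scale. The files name the array design's genome build, JGI Chlre3.1, and RefSeq coordinates served to order the models along the chromosomes.

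The intensities were corrected by normexp (offset 50; outlier spots and those with a net signal of -100 or less did not enter its fit), normalized by loess within each array and expressed as log2 red over green in limma 3.58.1 (R 4.3.3). Control spots were left out. Probes detected (well above background in red or green) on 3 or more of the 15 arrays were tested, and a model's value is the mean over its tested probes. The third probe of a model, from the earlier array design, was kept in this mean. The paper left such probes out, citing their lower ratios and the potential of many to cross-hybridise. One coefficient per strain was fitted over all 15 arrays (lmFit, eBayes), and npq4 minus cc3491 was the contrast; a probe or model was called at a Holm adjusted p of 0.05 and 2-fold, with Benjamini-Hochberg in place of Holm as the alternative used for lists and single genes. All p-values were adjusted over all probes or models. For the levels in each channel, Aquantile normalization followed loess. The scripts were tested on simulated data. Arrays carry no counts, and their number, 3 against 4, limits the precision.

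The comparison, the gene lists and the members named were chosen with earlier results of these data known. Named were LHCSR1, LHCSR2 and LHCSR3; models with at least 2 probes called in 1 direction and no overlap between the strains' arrays, up to 12 per direction by size; models with a symbol that passed Benjamini-Hochberg and 2-fold without overlap, up to 12 per direction; and up to 4 called members of each list. Symbols came from the study's tables of expression under starvation and from its text where they gave 1 symbol (478 models, 477 of them tested), and 12302 models were matched to a RefSeq locus tag. Alternatives were the offset, the spots used for normexp, the scanner's ratio, the series table, median centring, the filter on dim probes, the arrays in the fit, the adjustment, the fold limit, the time points with and without a block, the third probe of each model, and leaving out each array.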

Additional observations from a re-analysis of the deposited data

Results flagged for a closer look

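The response differed between npq4 and cc3491, by a test of the difference itself, in 124 probes and in 38 transcript models (limma, Holm adjusted p of 0.05 and 2-fold); the largest of these are described in the report. In 2 of 57 groups of 4 arrays examined, 1 array stood apart from the other 3 by Dixon's criterion, which chance alone gives in about 1 of 20 groups. These were the 4A+ array of 72 h for model 186626, at a log2 ratio of -2.86, and the 4A+ array of 24 h for PHC17, at 0.14. Neither enters a difference between npq4 and cc3491 except through the spread shared by all strains.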

How the results depend on the processing

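The counts of calls moved with the settings more than the directions did. With Holm and 2-fold, 124 probes, 38 models and 2 members of the gene lists were called. The probe count was 27 with a normexp offset of 0, 36 with the scanner's ratio and with the series table, 79 with median centring, 30 over probes above background in both channels on all 7 arrays, and 11 in a fit of those 7 arrays alone. The model count was 23 with an offset of 0, 7 in the fit of 7 arrays and 83 with no fold limit. Benjamini-Hochberg gave 1066 probes (578 higher, 488 lower), 345 models and 52 list members (19 higher, 33 lower). Of the list members, 1 was called with an offset of 0, 0 in the fit of 7 arrays, 1 with no filter on dim probes and 7 without the third probe of each model, which came from the earlier array design. Leaving out 1 array at a time gave 78 to 153 probes, 25 to 47 models and 1 to 2 list members. Levels centred on channel medians gave 24.7% of the models called lower with the larger gap at 0 h, against 52.5% with Aquantile. The cause of these shifts was not tested.

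With the time point as a replicate block (24, 48 and 96 h of both strains, 6 arrays, limma), 0 probes, 0 models and 0 list members passed Holm, and 0 passed Benjamini-Hochberg, while 6048 probes and 2566 models had an unadjusted p under 0.05; the same 6 arrays without the block, fitted with all other arrays of the series, gave 153 probes and 47 models. The time points did not pair the strains: deviations of arrays of the same time correlated at -0.0083, -0.054 and -0.084.

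Of the 42 named genes, the sign turned only for LHCSR1, which was not called: -0.51 with normexp fitted on all spots and -0.23 without npq4 replicate 3 (96 h), against 0.19 in the report and up to 0.54 when other arrays were left out. The other 41 kept their sign under every alternative that gave a value; calls were lost by 21 in the fit of 7 arrays, 16 with the scanner's ratio, 10 with an offset of 0, 17 without npq4 replicate 2 (48 h) and 14 without npq4 replicate 1 (24 h). ARS1 was among those lost with an offset of 0 and with the scanner's ratio. H2B calls numbered 12 with an offset of 0, 5 with the scanner's ratio, 5 without the third probe of each model and 0 in the fit of 7 arrays, with medians of -1.63 to -2.35 over all alternatives. In npq4, spots not above background limit LHCSR2, LHCSR3, AOC5, ARS2, CCP2, FDX2, RSEP1 and models 186626, 157675, 181358, 146646, 183580 and 169939, among others. Saturated cc3491 spots limit LHCSR1, LHCBM9, PHC15, SLT1, FEA1, CYC6, model 205519 and, on fewer spots, ARS1 and CDO1. The medians of the chlorophyll synthesis and plastid ribosome lists changed order with an offset of 0 (1.58 against 1.09) and with the scanner's ratio (2.11 against 1.08).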
